A study of Mus musculus with 2 samples.

Results

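The genes described here are 35 genes of the unfolded protein response and of protein folding in the endoplasmic reticulum (ER), given as a fixed list of symbols. They were found on the array by matching each probe's accession to these symbols. 34 of the 35 had at least 1 probe, through 59 of the 41174 probes, and all of these 34 were among the 13899 detected genes. Pdia3, a disulfide isomerase of glycoprotein folding, matched no probe. The listed gene Ero1l is named Ero1a below, as in the RefSeq table used for names.

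RNA came from the ventral prostate of mice of the FVB/N strain, which the labels also spell FBV/N, at 6 months of age. One pool held RNA of 6 wild-type mice and the other RNA of 6 ARR2PB-miR32 transgenic mice, and both genotypes share strain, tissue and age. The transgene's ARR2PB promoter, built from rat probasin elements, is active in prostate epithelial cells in response to androgen, so stromal and immune cells of the gland are not its intended site of expression. Both pools were hybridised together to 2 two-colour Agilent whole mouse genome arrays, with the transgenic pool in Cy3 on array 1 and in Cy5 on array 2. The arrays are technical replicates of 1 pool per genotype. No test between genotypes was therefore possible, no p-value is given, and each error below is the SD of the 2 arrays (n = 2), with no measure of how mice differ.

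The ER folds secreted and membrane proteins with the help of chaperones, disulfide isomerases and glycan-modifying enzymes. When unfolded proteins build up, the sensors Ern1 (IRE1), Atf6 and Eif2ak3 (PERK) raise the transcription of folding and degradation genes through Xbp1, cleaved Atf6 and Atf4. The ventral prostate is a secretory gland whose luminal cells carry a dense ER. miR-32 is a microRNA, a short RNA that lowers the amount or the translation of messenger RNAs that pair with its seed, and the question here is which messenger RNAs of the gland differ when the epithelium carries it as a transgene.

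The first sequence shown is the mature microRNA of the transgene's name, from RefSeq (GRCm38.p6, chr4:56895272-56895293, minus strand). Capitals mark its seed, bases 2 to 8, which 6 mature mouse microRNAs of the table share, among them miR-92a-3p and miR-25-3p.
mmu-miR-32-5p: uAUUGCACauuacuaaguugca

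The next sequences are promoters of member genes, printed 5′ to 3′ on the gene's strand and ending at or before the start site, from the RefSeq promoter table of GRCm38.p6. They are shown because Hspa5 and Dnajb9 carried the lowest ratios and because the others hold the elements through which this response is known to act. Capitals mark matches to 3 motifs searched on both strands. These are the ER stress response element ERSE, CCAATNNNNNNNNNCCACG, its compact form ERSE-II, ATTGGNCCACG, and the C/EBP-ATF response element CARE, TGATGNAA, which Atf4 is known to bind. Hspa5 (chr2:34771840-34772089, plus strand) and Dnajb9 (chr12:44210069-44210318, minus strand) are given over 250 bases. Hsp90b1 (chr10:86705503-86705686, minus strand) has 2 ERSE matches, 1 on each strand. Herpud1 (chr8:94386347-94386417, plus strand) is shown for ERSE-II, and Asns (chr6:7693210-7693262, minus strand) and Chac1 (chr2:119351019-119351086, plus strand) for CARE.
Hspa5: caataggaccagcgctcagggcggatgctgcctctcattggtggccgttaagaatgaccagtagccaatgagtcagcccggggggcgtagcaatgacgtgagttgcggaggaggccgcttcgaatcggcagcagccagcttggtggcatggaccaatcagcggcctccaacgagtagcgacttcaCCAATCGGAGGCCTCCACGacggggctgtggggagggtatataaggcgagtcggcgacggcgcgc
Dnajb9: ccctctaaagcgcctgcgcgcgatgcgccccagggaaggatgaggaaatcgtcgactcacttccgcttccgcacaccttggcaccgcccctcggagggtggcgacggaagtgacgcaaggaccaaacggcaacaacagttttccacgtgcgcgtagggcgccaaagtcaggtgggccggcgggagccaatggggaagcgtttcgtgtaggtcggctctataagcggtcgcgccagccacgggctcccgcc
Hsp90b1: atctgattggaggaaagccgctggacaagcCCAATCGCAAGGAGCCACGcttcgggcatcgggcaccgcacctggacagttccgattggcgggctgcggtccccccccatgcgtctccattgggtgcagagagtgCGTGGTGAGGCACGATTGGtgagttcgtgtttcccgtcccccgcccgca
Herpud1: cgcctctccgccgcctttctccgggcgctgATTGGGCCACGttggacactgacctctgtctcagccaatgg
Asns: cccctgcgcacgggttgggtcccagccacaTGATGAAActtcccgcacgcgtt
Chac1: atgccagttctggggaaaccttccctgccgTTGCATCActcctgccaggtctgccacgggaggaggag

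Windows of 300 bases, from 250 before to 50 after the start site, were present for 30 of the 35 genes. ERSE was found in 9 of these, Calr, Canx, Creld2, Derl3, Dnajc3, Hsp90b1, Hspa5, Pdia6 and Syvn1, or 29.0% of the members' 31 windows, against 0.119% of all 32851 windows. ERSE-II was found in Dnajb11 and Herpud1 and in 0.0365% of all windows. CARE was found in Asns, Chac1, Herpud1 and Trib3, in 12.9% of the members' windows and in 3.97% of all. No window held both ERSE and ERSE-II (0 of 32851), and Herpud1 was the member with matches to both ERSE-II and CARE, which did not share bases. The Hspa5 match begins 65 bases before the start site. The Dnajb9 window held no match to the 3 motifs. A match is a description of the letters in the window, not a shown site. The members were listed as genes of this response and the motifs are its known elements. Their higher share of matches is therefore no result of these arrays.

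A gene's level is the log2 signal of its brightest detected probe after normalization, and its ratio is that of the transgenic over the wild-type pool. The rule for a call, higher or lower, asked for 2 things: a mean log2 ratio of 1 or more in size, and a difference of 1.5-fold or more, one way, on both arrays. By this rule 2 of the 34 measured members were lower in the transgenic pool, Hspa5 and Dnajb9, and 0 were higher. The background was 3.53% lower and 1.09% higher among all 13899 detected genes, against 5.88% lower among the members. With detection in both pools required, 267 of 12011 genes were lower and 126 higher, against 2 lower and 0 higher of 32 members. With a rule of 1.5-fold in the mean and the same direction on each array, the same 2 members were lower and Canx was higher, while 7.75% of all genes were lower and 3.4% higher. The members' median ratio was -0.12, against 0.01 for all detected genes, and it was -0.03 on array 1, -0.16 on array 2 and 0.048 with median centring in place of loess, where the median of all genes was 0.060. For 30 of the 34 (88.2%) the mean ratio was within 0.5 of 0, near the 84.9% of all detected genes. Both arrays were below 0 for 14 members and above 0 for 5, and they had opposite signs for 15, against 27.3%, 24.6% and 48.1% of all detected genes.

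**Figure D1:**
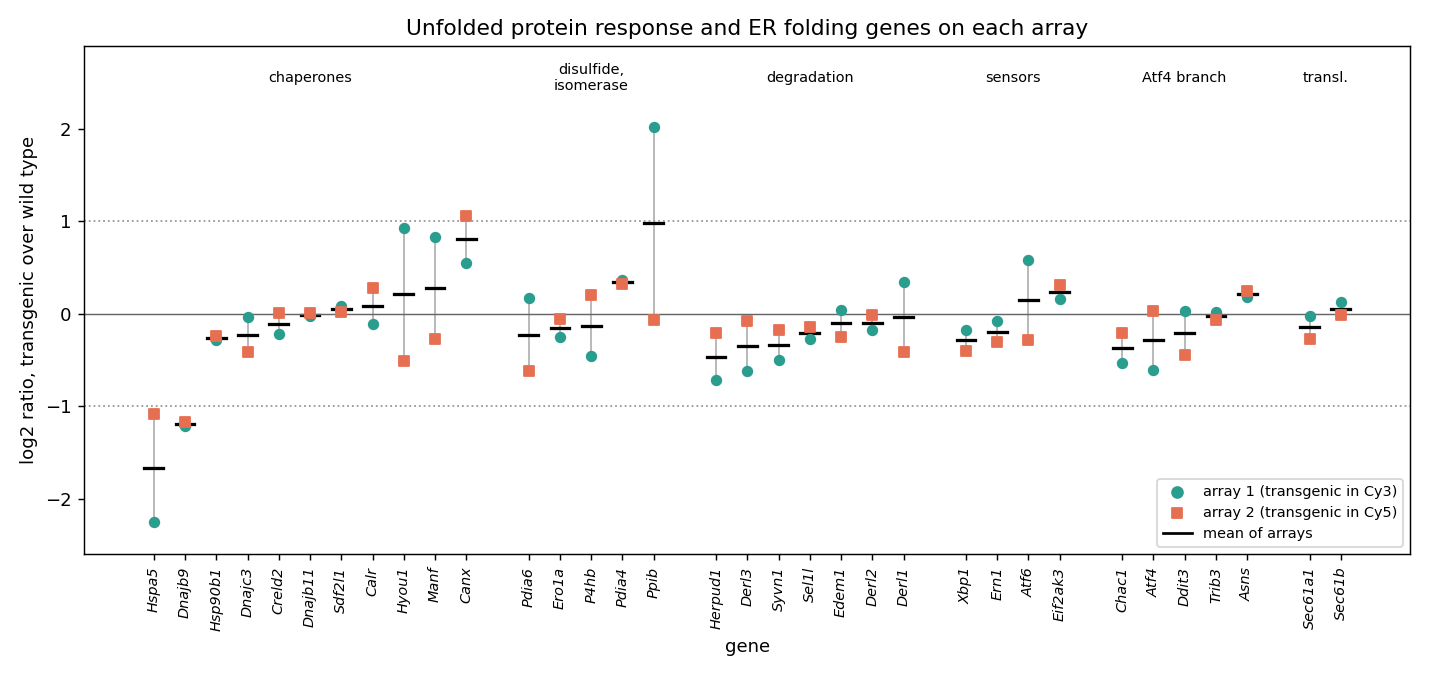
Log2 ratio of the transgenic over the wild-type pool (vertical axis) for the 34 measured members (horizontal axis), ordered by role, with circles for array 1, squares for array 2 and a bar for their mean. Dotted lines mark a log2 ratio of 1 in either direction. Hspa5 (mean -1.67) and Dnajb9 (mean -1.19) lie below the lower line, and the arrays differ most for Ppib, at 2.03 and -0.06.

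Among the 11 chaperones and co-chaperones, 2 were lower and the other 9 did not pass the rule. Hspa5 encodes BiP, the ER's Hsp70 chaperone, which also holds the sensors inactive. Its log2 signal was 15.07 and 14.27 in the wild-type pool on arrays 1 and 2 and 12.82 and 13.18 in the transgenic pool. Both transgenic signals lay below both wild-type signals. The mean log2 ratio was -1.67 ± 0.82, or 3.18-fold lower. The arrays gave -2.25 and -1.09, so the direction was shared but the size was not.

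Dnajb9 encodes ERdj4, a J-domain co-chaperone of BiP that helps misfolded proteins to degradation and is a well-known target of spliced Xbp1. On arrays 1 and 2 the signal was 10.58 and 10.84 in the wild-type pool and 9.36 and 9.68 in the transgenic pool. The pools did not overlap, and the arrays agreed closely, with -1.21 and -1.17. The mean was -1.19 ± 0.03, or 2.28-fold lower. Its other detected probes lay below 0 too, at -0.83 and -0.44, and did not reach a mean of 1 in size.

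The other chaperones and co-chaperones among the members did not pass the rule. Hsp90b1, the ER's Hsp90 (endoplasmin), was at -0.26 ± 0.04, and its other probe was at -0.43. Dnajc3, a co-chaperone that also inhibits the kinase PERK, was at -0.23 ± 0.27 and Dnajb11, which brings unfolded clients to BiP, at -0.01 ± 0.02. Sdf2l1, a partner of Dnajb11, was at 0.06 ± 0.04 and Creld2, a stress-induced ER protein, at -0.11 ± 0.16. By their brightest probes these 5 genes had SDs of at most 0.27, and a change of the size of Hspa5's was not seen for them on either array. The other detected probes of Dnajc3 were at -0.31 ± 0.17, 0.02 ± 0.47 and -0.06 ± 0.21, so its sign depended on the probe. Hyou1, a nucleotide exchange factor of BiP, gave 0.93 and -0.51 on the arrays, with a mean of 0.21 ± 1.02. Manf, a secreted ER stress protein, gave 0.83 and -0.28, with a mean of 0.28 ± 0.78. For both the sign depended on the array.

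The lectin chaperones bind monoglucosylated glycoproteins. Calr (calreticulin) was at 0.09 ± 0.27, and its other probe gave 0.23. Canx (calnexin) had the second highest ratio of the members. Its log2 signal was 11.14 and 11.58 in the wild-type pool and 11.69 and 12.64 in the transgenic pool, so both transgenic signals lay above the wild-type ones. The mean was 0.81 ± 0.35, or 1.75-fold higher. That value rests on 1 of 3 probes, since the other detected probes of Canx were at -0.15 and -0.07. Feature Extraction's own ratios for the first probe were -0.19 on array 1 and 1.47 on array 2.

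**Figure D2:**
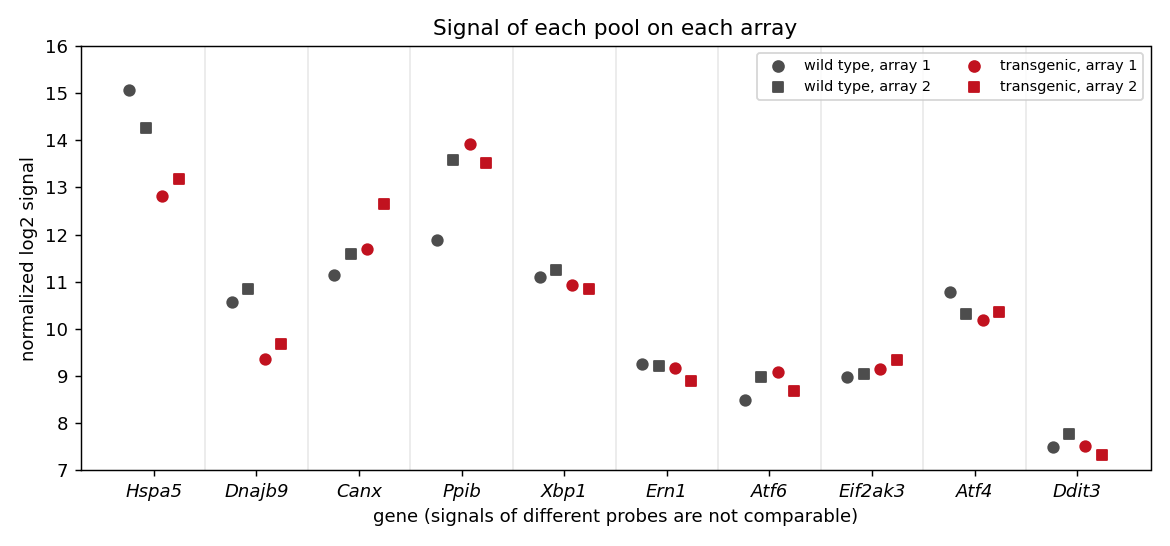
Normalized log2 signal (vertical axis) of each pool on each array for the called members, the members with the highest ratios and the core of the response (horizontal axis), in grey for wild type and red for transgenic, with circles for array 1 and squares for array 2. Levels of different genes come from different probes and cannot be compared. The pools separate clearly for Hspa5 and Dnajb9, while for Ppib 1 wild-type signal (11.89) lies apart from the other 3.

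Of the 5 measured disulfide and prolyl isomerase enzymes, 0 passed the rule. Pdia4 is a disulfide isomerase that is induced by ER stress. Its log2 signal was 10.25 and 10.28 in the wild-type pool and 10.61 on both arrays in the transgenic pool, which lay above without overlap. The mean ratio was 0.34 ± 0.03. Ppib, the ER's cyclophilin, had the highest mean of all members, 0.98 ± 1.48. Its log2 signal was 11.89 and 13.57 in the wild-type pool and 13.92 and 13.51 in the transgenic pool, so the pools overlapped, and its other probe was at 0.40. Pdia6, which acts with BiP, was at -0.23 ± 0.56, and P4hb, the founding member of the isomerase family, at -0.13 ± 0.47, each with opposite signs on the arrays. Ero1a, the oxidase that recharges the isomerases, was at -0.15 ± 0.13, and the transgenic pool was well above background there on array 1 alone.

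The 7 genes of ER-associated degradation, which moves misfolded proteins to the proteasome, had mean ratios from -0.46 to -0.03 by their brightest probes, and 0 passed the rule. Their median was -0.21, and it was -0.13 with median centring and -0.14 with Feature Extraction's ratios. Herpud1, a membrane organizer of the ubiquitin ligase complex, had the third lowest ratio of all members. Its log2 signal was 14.24 and 14.11 in the wild-type pool and 13.53 and 13.90 in the transgenic pool, without overlap, and the mean ratio was -0.46 ± 0.36. Syvn1, the ligase itself (Hrd1), was at -0.33 ± 0.23 and Sel1l, its adaptor, at -0.21 ± 0.09, both below 0 on each array. Among the derlins, channel-like proteins of the same complex, Derl3 was at -0.35 ± 0.39, Derl2 at -0.09 ± 0.12 and Derl1 at -0.03 ± 0.54. The other probe of Derl2 was at 0.13, and the 3 other probes of Derl1 lay from 0.084 to 0.11, so the sign of both genes depended on the probe.

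Edem1, a lectin that hands trimmed glycoproteins to this route, depended on the probe. The brightest probe gave 0.044 and -0.25, with a mean of -0.10 ± 0.21. A dimmer probe had a mean of -1.01 ± 0.02, which on its own would pass the rule, and the other detected probe was at -0.49. Of the 13 members with several detected probes, the probes had 1 sign for 8 and both signs for 5. The probes of a gene spanned more than 0.5 for 4 of them, Canx, Dnajb9, Edem1 and Ppib, and the median span was 0.23. The called members thus include 1 gene with agreeing probe signs (Dnajb9) and 1 that rests on a single probe (Hspa5).

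**Figure D3:**
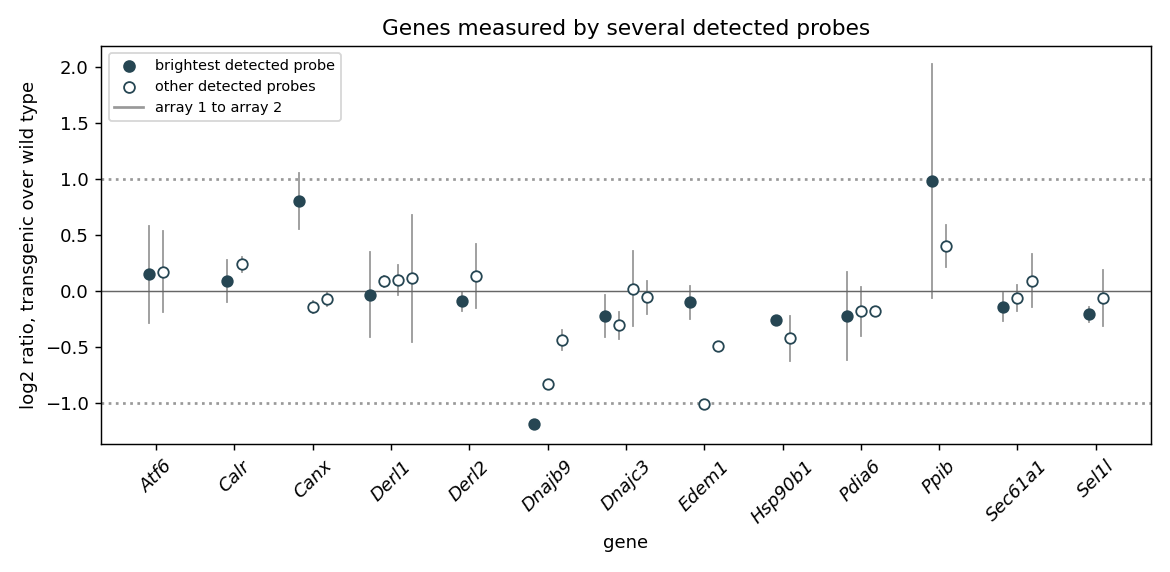
Log2 ratio of the transgenic over the wild-type pool (vertical axis) for each detected probe of the 13 members with several detected probes (horizontal axis). Filled points are the brightest probe, which stands for the gene, open points the others, and vertical lines run from array 1 to array 2. The probes of Canx, Dnajb9, Edem1 and Ppib lie more than 0.5 apart.

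The sensors differed little between the pools, and none of the 4 genes of this group passed the rule (0 of 4). Ern1, the kinase and nuclease that splices Xbp1 RNA, had log2 signals of 9.26 and 9.20 in the wild-type pool and 9.18 and 8.90 in the transgenic pool, with a mean ratio of -0.19 ± 0.16. Eif2ak3, the kinase that halts translation by phosphorylating eIF2-alpha, had 8.98 and 9.03 in the wild-type pool and 9.14 and 9.35 in the transgenic pool, with a mean of 0.24 ± 0.11. The transgenic signals were on the lower side for Ern1 and on the higher side for Eif2ak3, in both cases without overlap. For Ern1 the nearest signals of the pools were only 9.18 and 9.20. Separation of this kind compares 2 arrays of the same pools, and its share among all genes is not given here. Atf6, the membrane-bound transcription factor, had 8.50 and 8.97 in the wild-type pool and 9.08 and 8.68 in the transgenic pool, which overlapped, with a mean of 0.15 ± 0.61. Xbp1, the transcription factor made from the spliced RNA, had 11.11 and 11.25 in the wild-type pool and 10.94 and 10.85 in the transgenic pool. The Xbp1 signals did not overlap, and the mean ratio was -0.29 ± 0.16. Whether the probe separates spliced from unspliced Xbp1 RNA is unknown here.

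The Atf4 branch, the arm of translation control and amino acid supply, had 0 of 5 genes past the rule. Atf4, whose translation rises when eIF2-alpha is phosphorylated, had log2 signals of 10.78 and 10.31 in the wild-type pool and 10.18 and 10.35 in the transgenic pool, with a mean ratio of -0.28 ± 0.45. Ddit3 (CHOP), a transcription factor linked to cell death under stress, had 7.49 and 7.77 in the wild-type pool and 7.52 and 7.32 in the transgenic pool, with a mean of -0.21 ± 0.34. For both genes the pools overlapped. Ddit3 was dim, with the wild-type pool well above background on array 2 alone, and its mean turned to 0.25 with Feature Extraction's ratios. Chac1, which degrades glutathione, was at -0.37 ± 0.23, Asns, the asparagine synthetase, at 0.21 ± 0.04, and Trib3, a pseudokinase that restrains this arm, at -0.02 ± 0.06. The promoters of Chac1 and Asns hold CARE before the start site, and the Trib3 window holds it past the start site. The median of the group was -0.21, and its sign turned with Feature Extraction's ratios (0.19), without background subtraction (0.026) and on array 1 alone (0.025).

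The translocon genes Sec61a1 and Sec61b, subunits of the channel through which new proteins enter the ER, were at -0.15 ± 0.17 and 0.06 ± 0.10. Members with ERSE in the promoter had a median ratio of -0.23, from -1.67 to 0.81, with 1 of 9 called lower. The 20 measured members whose windows lack it had a median of -0.12, from -1.19 to 0.98, with 1 called lower. Of the genes with ERSE, Hspa5 had the lowest ratio. Derl3, Syvn1, Hsp90b1, Pdia6 and Dnajc3 lay between -0.35 and -0.23, and Creld2, Calr and Canx between -0.11 and 0.81. Hspa5, Canx and Ppib (0.98), at ends of these ranges, were read from probes in the last rows of the array, described below. The other probes of Canx were at -0.15 and -0.07.

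The position of a probe on the array moved with its ratio. On array 1 the median log2 ratio of detected probes ran from -0.21 in the first of 10 equal bands of the 532 rows to 0.71 in the last, and on array 2 from 0.11 to -0.36. The median gap between the arrays was 1.10 in the last band, from row 479 on, against 0.23 in the sixth. The probes of Hspa5, Canx, Hyou1 and Ppib lie in the last band, and their median gap was 1.30, against 0.24 for the other 30 members. Dnajb9 lies in the middle of the array, at row 257. Feature Extraction's ratios had no such run of medians, at 0.09 and 0.04 in the last band, but the gap of these 4 members was 1.42 there, with Hspa5 at -3.71 on array 1 and -0.41 on array 2. Hspa5 therefore missed the rule with those ratios, since array 2 fell short of 1.5-fold, although its mean was -2.06. After the local median of the detected probes around each spot was subtracted, Hspa5 was at -1.78, Dnajb9 at -1.21, Canx at 0.57, Ppib at 0.76, Hyou1 at 0.03 and Manf at 0.01, and the same 2 members were lower (0 higher).

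**Figure D4:**
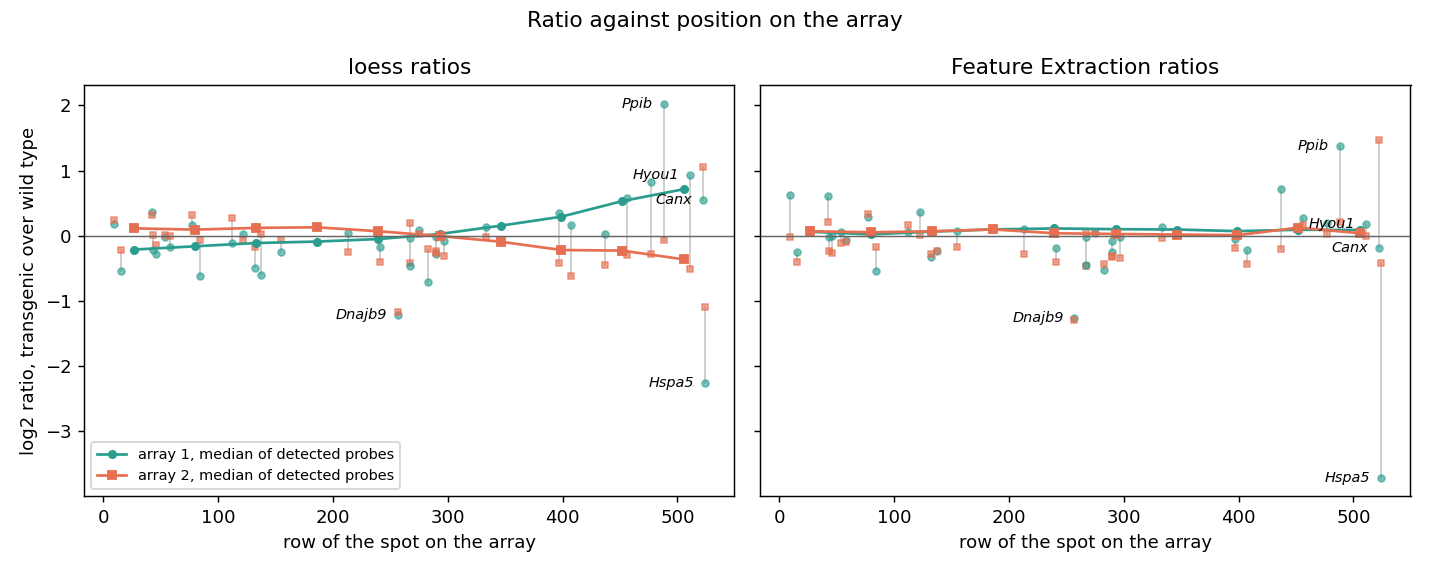
Log2 ratio (vertical axis) against the row of the spot (horizontal axis) for the members' probes (small points, with circles for array 1 and squares for array 2 joined by a line) and for the median of detected probes in each of 10 bands of rows (large joined points). The left panel shows loess ratios, where the medians part to 0.71 and -0.36 in the last band, and the right panel Feature Extraction's ratios, where they are 0.09 and 0.04. Hspa5, Canx, Hyou1 and Ppib sit at the right end in both.

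The neighbouring pathway lists held 150 detected genes of 161, of which 2 were higher and 3 lower by the same rule, with a median ratio of -0.03. These are 1.33% higher and 2% lower, against 1.09% and 3.53% of all detected genes. Of 21 other ER folding genes 1 was lower (0 higher), Dnajc10 (ERdj5), a disulfide reductase that works with BiP and Edem1 in degradation. The wild-type pool had log2 signals of 14.91 and 13.59, and the transgenic pool 12.79 and 12.22, with a mean ratio of -1.74 ± 0.53. This probe lies in row 524, the row of the Hspa5 probe, and the other probes of Dnajc10 gave -0.45 ± 0.01 in the middle of the array and 0.09 ± 2.12 in the last band of rows. The mean of the 3 probes did not pass the rule. At the upper end of that list Pdia5, another disulfide isomerase, was at 0.60 (0.12 and 1.07 on the arrays).

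Of 20 other targets of Atf4 and the integrated stress response, 2 were higher and 1 was lower. Nupr1, a small stress-induced chromatin protein, had log2 signals of 12.59 and 13.55 in the wild-type pool and 15.90 and 15.35 in the transgenic pool, and its mean ratio was 2.56 ± 1.07. It passed the rule in all 11 alternatives that measured it. The Nupr1 probe lies in row 500, in the last band, so the alternative without those rows did not measure it. Ddit4, an inhibitor of the kinase mTORC1, had 13.00 and 12.93 in the wild-type pool and 14.10 and 14.02 in the transgenic pool, with a mean of 1.10 ± 0.01. It missed the rule with median centring and in the deposited table, and passed in 10 of 12 alternatives. Stc2, a secreted glycoprotein, was lower at -1.08 ± 0.36 and missed the rule in 5 of 11 alternatives. The Stc2 probe lies in row 519, also in the last band, and Feature Extraction's ratios were -2.41 and -0.49 on the arrays. These 3 genes went in both directions while Atf4, Ddit3, Trib3, Asns and Chac1 stayed within 0.5 of 0, and the list's median was -0.05.

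The other lists had few or no genes past the rule. Hspb1, a small heat shock protein of the cytosol, was lower at -1.03 ± 0.24, the 1 called among 14 cytosolic heat shock genes, whose highest was Hsp90aa1 at 0.41. Hspb1 passed in 10 of 12 alternatives and missed the rule with median centring, at -0.87, and on array 2 alone, at -0.86. None was called among 21 translocon and signal peptidase genes (0; Srpr, the signal recognition particle receptor, at -0.85, to Srp54a at 0.74), 13 of the oligosaccharyltransferase and glucosidases (Ostc at -0.32 to Ost4 at 0.36), or 19 further degradation genes (Herpud2 at -0.48 to Rnf5 at 0.35). The 13 other sensors, proteases and kinases ran from Creb3l4 at -0.38 to Eif2ak2 at 0.23, and the 12 aminoacyl-tRNA synthetases from Aars at -0.50 to Sars at 0.31, with 0 called. Among 17 genes of COPII coats and KDEL receptors, which carry cargo out of the ER and return its resident proteins, 0 were called, with Kdelr3 at -0.55 and Sec31a at 0.69. The probes of Srp54a, Ost4 and Sec31a lie in the last band of rows. Srp54a gave 1.53 and -0.05 on the arrays, and Feature Extraction's ratios for Sec31a were -0.45 and 1.52.

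**Figure D5:**
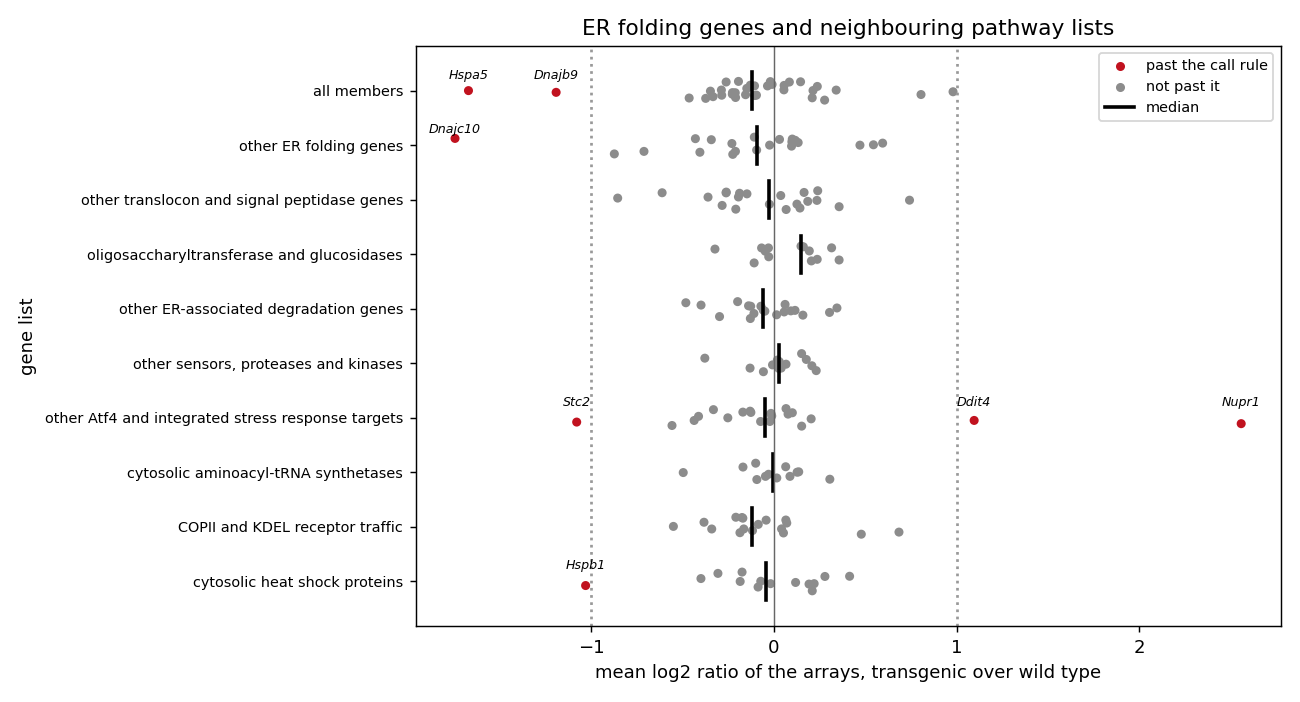
Mean log2 ratio of the 2 arrays (horizontal axis) for each detected gene of the members and of 9 other pathway lists (vertical axis), with a bar for each list's median. Red points passed the call rule and are named, and grey points did not. The list medians lie between -0.12 and 0.15.

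Markers of other cells differed between the pools beside these ratios. All 10 luminal epithelial markers were above background in both pools, and 0 were called. The log2 of their summed linear signals was 17.2 and 16.9 in the wild-type pool and 17.0 and 17.3 in the transgenic pool. The brightest markers weigh most in such a sum, with Krt18 at 15.74 and 15.45 in the wild-type pool. B and plasma cell markers were lower for 8 of the 11 that were detected (12 listed) and higher for 0. The log2 of their summed linear signals was 14.5 and 14.7 in the wild-type pool and 11.5 and 11.7 in the transgenic pool. Jchain alone was at 13.97 and 14.14 in the wild-type pool. Among the macrophage and dendritic cell markers 7 of 10 were lower, among T and NK cells 4 of 7 and among fibroblasts 2 of 7, with 0 higher in each. Among all detected genes 3.53% were lower and 1.09% higher. Detection in both pools held for 4 of the 11 B and plasma cell markers and 2 of the 7 T and NK cell markers. The plasma cell genes Jchain and Mzb1 were at -3.54 and -2.74, and Sdc1, which epithelium also expresses, was at 0.04. Plasma cells are known for a large ER and high chaperone RNA. The part of these cells in the ratios of Hspa5, Dnajb9 and the degradation genes was not tested, and in bulk RNA fewer cells of a type and less RNA per cell cannot be told apart. Of the 8 basal epithelial markers 0 were called, but all 8 were below 0 on both arrays, with a median ratio of -0.42. Smooth muscle markers were below 0 on both arrays for 6 of 7, with a median of -0.37 and 0 called, and the fibroblast median was -0.76. The luminal median was 0.09, with 5 of 10 markers above 0 on both arrays, 0 below and 5 with opposite signs. Under the 1.5-fold rule 1 luminal marker, Epcam (0.90 ± 0.11), was higher, as were 3.4% of all detected genes. Of 7 endothelial markers 2 were detected and 0 called.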

How the data were processed

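Ventral prostate RNA of 1 pool per genotype was measured on 2 arrays. The labels give 100 ng of RNA per labelling, with a low-input kit. Per the file headers, spots were read with Feature Extraction 11.0.1.1 and the array annotation is mm9. The deposited scanner files give median signal and background intensity per dye, processed intensity, and a log10 ratio of red over green. The deposited series table holds log2 ratios, which correlate at r of 1 with Feature Extraction's ratios in the direction of transgenic over wild type, apart from a constant of -0.08 and -0.05. The comparison covered 15474 probes, the same number as were detected in both pools, and both sets gave 12011 genes. By these counts the filter of the deposited table matched the requirement of detection in both pools.

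Intensities were corrected by normexp (offset 50), then ratios by loess on each array, with limma 3.58.1 (R 4.3.3). Control spots and outlier-flagged spots were left out, and no spot was saturated (0). A probe was detected where at least 1 pool was well above background on both arrays. A gene took its brightest detected probe. Symbols came from RefSeq (GRCm38.p6), for 27816 of 41174 probes. Every detected member is named, with signals for called genes, the 3 highest, the 3 lowest and the pathway core. In each other pathway list, called genes and the extremes are named. Marker lists are given by counts, and their few named genes were chosen after their values were seen. The processing was tested on simulated data with an intensity-dependent dye effect but no drift along the rows. That test therefore does not cover the drift seen on these arrays. Members and lists were chosen with earlier results of these data known. The number of arrays limits the precision.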

Additional observations from a re-analysis of the deposited data

How the results depend on the processing

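Results were recomputed under 12 alternatives of processing, detection, probe choice, single arrays or position on the array, and counts also under 2 other call rules. Local median subtraction and leaving out the rows from 479 on were chosen after seeing the data. The count of lower members went from 2 to 1 with median centring in place of loess and with all detected probes of a gene averaged, where Dnajb9 missed the rule, and to 1 with the ratios of Feature Extraction and the deposited table, where Hspa5 missed it. It was 1 without the probes in those rows, which leaves Hspa5 unmeasured. Higher members numbered 1 under the 1.5-fold rule (Canx), 1 without replicate 1 (Canx, 1.06) and 1 without replicate 2 (Ppib, 2.03). Hspa5 ranged from -2.25 to -1.09 over 11 alternatives and Dnajb9 from -1.35 to -0.82 over 12, with no change of sign (0). With median centring the median was 0.048 for all members, 0.14 for chaperones, 0.11 for disulfide and prolyl isomerase enzymes and -0.13 for degradation genes. The degradation median was -0.33 with the mean of probes. The disulfide median was 0.041 in the deposited table, 0.11 with detection in both pools and 0.071 with no filter on dim probes. The Atf4 branch was at 0.026 without background subtraction, 0.19 by Feature Extraction and -0.092 in the deposited table. With 1 replicate left out, the chaperone median ran from -0.23 to -0.035, the disulfide median from -0.059 to 0.17, the sensor median from -0.30 to 0.042 and the Atf4 branch from -0.062 to 0.025. The causes of these shifts were not tested. Of the other values, 20 member counts equalled the reported ones. By less than the SD of the arrays moved 56 group medians, 78 pathway list medians and 422 ratios of single genes, while 30 list medians and 38 single ratios moved by more. For a single gene, 1 array always lies closer to the mean of the 2 than their SD. The single-array entries among the 422 could therefore not have moved. The SD is also wide where the arrays disagree, as for Ppib (1.48), so the count is no measure of reliability. Over the alternatives, which measured 12011 to 31926 genes, 99 to 450 were higher and 267 to 938 lower, against 151 and 491 of 13899. No paired analysis was possible because the arrays carry the same pair of pools. Dim genes such as Ddit3 and Ero1a are limited by signal near background.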
